A study of Homo sapiens with 4 samples.

Results

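The genes examined here are TREM2, SPP1, AXL, APOE, GPNMB, LPL, CD9, FABP4, FABP5 and LGALS3, which are known from macrophages that take up and process lipid. They are 10 of 19775 genes named on the array, and they are measured by 20 of the 41097 probe sets that are listed for 1 gene. The members were chosen by name as a group of lipid-associated macrophage genes, and the group was selected on measured values, because TREM2, SPP1 and AXL had much higher signals in the Siglec-14 line. The difference between the lines is therefore given below as a description, with no test. RNA was measured in 4 samples of THP-1, a human monoblastoid leukemia line, on Affymetrix expression arrays, with 1 array for each of Siglec-14,NTHi[+], Siglec-14,NTHi[−], Siglec-5,NTHi[+] and Siglec-5,NTHi[−]. Siglec-14/THP-1 is the subline that expresses Siglec-14, an activating receptor for sialic acid, and stands for monocytes of people homozygous for the wild-type SIGLEC14 gene. Siglec-5/THP-1 expresses the inhibitory Siglec-5 and stands for monocytes of people who lack SIGLEC14. Both were held in serum-free macrophage medium for 6 h, with heat-killed nontypeable Haemophilus influenzae (NTHi) strain 2019 at 100 bacteria per cell or with no bacteria. Each Siglec is represented by 1 subline, so the Siglec and any other difference between the sublines cannot be told apart. There are no replicates, so no value has an error of its own.

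Lipid-associated macrophages are cells of adipose tissue, atherosclerotic plaque and fatty liver that gather around dying or lipid-laden cells. TREM2 is a surface receptor that binds lipids and lipoproteins and signals through the adaptor DAP12 (TYROBP), and in mouse adipose tissue it is needed for this macrophage state. The other genes encode a secreted matrix protein (SPP1, osteopontin), a receptor for dying cells (AXL), enzymes and carriers of lipid (LPL, APOE, FABP4, FABP5) and membrane or lectin proteins (CD9, GPNMB, LGALS3).

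The regions just upstream of TREM2, SPP1 and AXL are shown because these 3 genes define the pattern. They are the 250 bases before the transcription start in RefSeq (GRCh38.p14), and 7 of the 10 genes were matched in the table used. AXL has 2 listed start sites, of which the one with the lower coordinate is shown. Capitals mark matches on either strand to AGGAA (the core of ETS factors such as PU.1), AACCACA (RUNX factors) and GGGCGG (Sp1).
TREM2, chr6:41163117-41163366, minus strand: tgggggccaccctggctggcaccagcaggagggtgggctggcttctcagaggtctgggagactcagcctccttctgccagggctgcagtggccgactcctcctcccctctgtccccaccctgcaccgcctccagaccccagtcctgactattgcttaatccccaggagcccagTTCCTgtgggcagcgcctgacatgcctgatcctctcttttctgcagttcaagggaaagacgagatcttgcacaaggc
SPP1, chr4:87975464-87975713, plus strand: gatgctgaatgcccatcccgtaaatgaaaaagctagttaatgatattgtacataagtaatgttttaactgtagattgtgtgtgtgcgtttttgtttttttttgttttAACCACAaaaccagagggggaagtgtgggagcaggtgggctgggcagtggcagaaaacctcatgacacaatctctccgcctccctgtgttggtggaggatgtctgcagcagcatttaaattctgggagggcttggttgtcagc
AXL, chr19:41218973-41219222, plus strand: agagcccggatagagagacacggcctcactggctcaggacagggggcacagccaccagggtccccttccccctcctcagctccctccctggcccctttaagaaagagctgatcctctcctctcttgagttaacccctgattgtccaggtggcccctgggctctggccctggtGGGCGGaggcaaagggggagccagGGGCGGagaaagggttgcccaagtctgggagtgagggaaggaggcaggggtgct

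TREM2 holds 1 ETS core, at position -77 from the start site and on the opposite strand. SPP1 holds 1 RUNX match, at position -143, and AXL holds 2 matches to Sp1, the first at position -78. Of all 35116 such windows, 56.8% hold an ETS core, 3.65% a RUNX match and 42.6% an Sp1 match. Matches to AP-1 (TGANTCA, in 6.57% of windows), the M-box of MITF and TFE factors (CATGTGA, in 2.90%), the E-box CACGTG (in 6.34%) and an NF-κB motif (GGGNNTTCC, in 5.78%) were searched too and have no match in these 3 windows. GPNMB, which is a known target of MITF in pigment cells and osteoclasts, holds 1 AP-1 match and 1 M-box match in its window. All motifs were searched on both strands and chosen with the sequences in view. The letters of the NF-κB motif can overlap those of an ETS core, and no 2 matches overlap in the windows shown. A match describes letters only.

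SPP1, TREM2, AXL and LPL had signals many times higher in Siglec-14/THP-1 than in Siglec-5/THP-1, with NTHi and without it. CD9, APOE and LGALS3 were higher by smaller factors, and FABP5 and GPNMB differed little on the brightest probe set. FABP4 lay just above the floor used here in Siglec-14/THP-1 and below it in Siglec-5/THP-1. For each of the 10 genes, both Siglec-14/THP-1 signals lay above both Siglec-5/THP-1 signals on the brightest probe set. The same order holds for 22.9% of all genes with a signal at the floor or above on at least 1 array. The floor is the median of all signals, 16, and a signal below it was raised to it before a ratio was taken, so that such a ratio is a lower bound. Differences of at least 3-fold, the threshold of the study's screen, are called here.

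**Figure D1:**
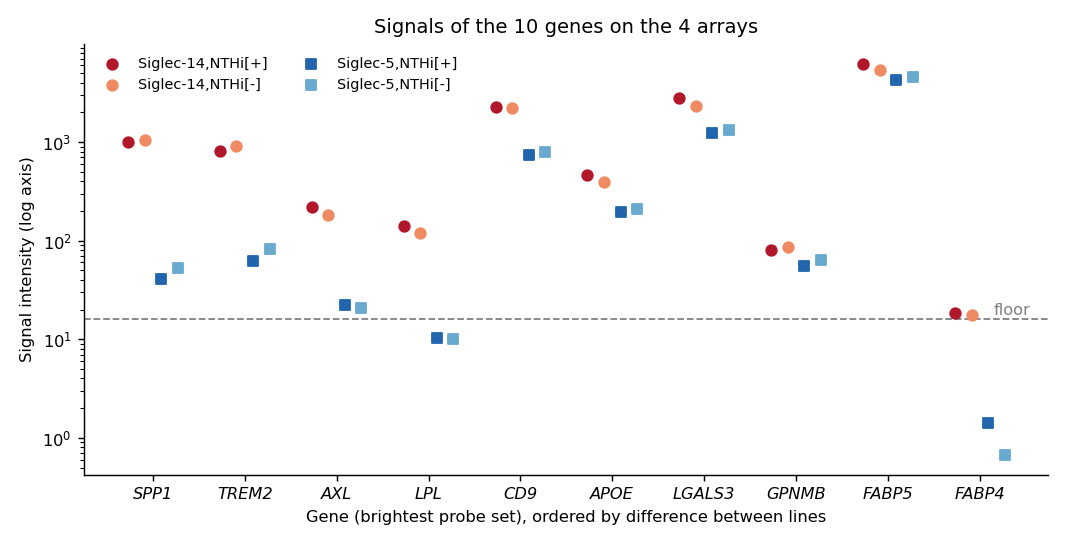
Signal intensity (log axis) of the brightest probe set of each of the 10 genes, 1 point per array, with circles for Siglec-14/THP-1 and squares for Siglec-5/THP-1. The genes are ordered by the difference between the lines, the dashed line is the floor of 16. For each gene both circles lie above both squares, and the gap is 24.2-fold with NTHi for SPP1.

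The surface receptors TREM2 and AXL were among the genes with the largest differences. TREM2 had signals of 803 in Siglec-14,NTHi[+] and 915 in Siglec-14,NTHi[−], against 61.8 in Siglec-5,NTHi[+] and 81.5 in Siglec-5,NTHi[−]. The 2 Siglec-14/THP-1 arrays were close to each other and far from the 2 Siglec-5/THP-1 arrays. The ratio between the lines was 13.0 with NTHi and 11.2 without it. AXL, a receptor tyrosine kinase of the TAM family that binds dying cells through GAS6, had signals of 221 and 181 in Siglec-14/THP-1 with and without NTHi, against 22.0 and 20.7 in Siglec-5/THP-1. The Siglec-5/THP-1 signals of AXL lay just above the floor, and the ratios were 10.1 with NTHi and 8.75 without it. A dimmer probe set of AXL had 25.7 and 12.3 in Siglec-14/THP-1, against 7.43 and 1.31 in Siglec-5/THP-1, so it reached the floor on 1 array only and gave a ratio of at least 1.60 with NTHi. The size of the AXL ratio therefore depended on the handling of low signals. With NTHi its log2 ratio was 3.33 on the brighter probe set, 2.64 with a pseudocount of 16 and 2.01 as the median over both probe sets, and it stayed above 3-fold in each.

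SPP1 had the largest ratio of the 10 genes. Its product osteopontin is a secreted phosphoprotein of bone matrix and activated macrophages that binds integrins and CD44. The signals were 991 in Siglec-14,NTHi[+] and 1043 in Siglec-14,NTHi[−], against 41.0 in Siglec-5,NTHi[+] and 52.7 in Siglec-5,NTHi[−]. The lines were thus 24.2-fold apart with NTHi and 19.8-fold apart without it. A 2nd probe set of SPP1 lay below the floor on all 4 arrays.

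The genes of lipid transport and breakdown were split. LPL, the lipoprotein lipase that frees fatty acids from circulating triglyceride, had signals of 141 and 118 in Siglec-14/THP-1 with and without NTHi, against 10.2 and 10.1 in Siglec-5/THP-1. Both Siglec-5/THP-1 signals lay below the floor, and LPL was at least 8.83-fold higher in Siglec-14/THP-1 with NTHi and at least 7.39-fold without it. Its 2nd probe set gave 136 and 102 in Siglec-14/THP-1, against 6.26 and 1.41 in Siglec-5/THP-1, and both Siglec-5/THP-1 signals were again below the floor. APOE, the apolipoprotein through which macrophages export cholesterol, had signals of 462 and 390 in Siglec-14/THP-1, against 193 and 210.1 in Siglec-5/THP-1, a ratio of 2.39 with NTHi and 1.86 without it. The 3 probe sets of APOE gave ratios of 1.94 to 2.81 with NTHi and 1.46 to 1.86 without it, so none reached 3-fold. FABP5, a cytosolic fatty acid carrier, was bright on all arrays, with signals of 6240.3 and 5309.5 in Siglec-14/THP-1, against 4229.7 and 4516 in Siglec-5/THP-1. The ratios were 1.48 with NTHi and 1.18 without it. FABP4, the related carrier of adipocytes and macrophages, had 18.4 and 17.5 in Siglec-14/THP-1, against 1.40 and 0.667 in Siglec-5/THP-1. Only the Siglec-14/THP-1 signals of FABP4 passed the floor, and the bounds were at least 1.15-fold with NTHi and at least 1.09-fold without it, so the size of its difference was not measurable on these arrays. The other probe set of FABP4 was below the floor throughout.

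CD9, GPNMB and LGALS3 encode a tetraspanin, a lysosomal and surface glycoprotein and the carbohydrate-binding lectin galectin-3, which is recruited to damaged lysosomes. CD9 had signals of 2281 and 2199 in Siglec-14/THP-1 with and without NTHi, against 743 and 797 in Siglec-5/THP-1. Its ratio was 3.07 with NTHi and 2.76 without it, on either side of the 3-fold threshold. Its call with NTHi was lost under all 3 other scalings of the arrays (log2 ratios of 1.51 to 1.57), and 2 of them, the trimmed mean and quantile normalization, called it without NTHi instead (1.61 and 1.67). Of the 2 other probe sets of CD9, 1 stayed below the floor and 1 had 13.6 and 16.9 in Siglec-14/THP-1, against 1.12 and 18.4 in Siglec-5/THP-1, which is the single exception to the order of the lines among 16 probe sets that reached the floor. LGALS3 had 2771 and 2293 in Siglec-14/THP-1, against 1223 and 1322 in Siglec-5/THP-1, a ratio of 2.27 with NTHi and 1.73 without it. GPNMB had 80.7 and 87.1 in Siglec-14/THP-1, against 55.8 and 63.0 in Siglec-5/THP-1. Its ratios of 1.45 and 1.38 were among the smallest of the group. The dimmer probe set of GPNMB had 23.0 and 25.1 in Siglec-14/THP-1, against 7.75 and 9.23 in Siglec-5/THP-1. Both Siglec-5/THP-1 signals were below the floor, and its ratios were at least 1.43 with NTHi and at least 1.57 without it.

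With NTHi, 5 of the 10 genes were called higher in Siglec-14/THP-1 (SPP1, TREM2, AXL, LPL and CD9) and 0 were called lower. Among all 13099 genes tested in this comparison, 1.63% were called higher and 0.0382% lower. Without NTHi, 4 genes were called higher (SPP1, TREM2, AXL and LPL) and 0 lower, where 1.21% of 13284 genes were called higher and 0.113% lower. The same 4 genes were called in both conditions, as were 1.04% of all genes tested in both. These counts rest in part on the values that chose the group, and nothing is read from them. The median log2 ratio of the 10 genes was 1.44 with NTHi and 1.18 without it, and that of all genes tested was 0.06 and -0.12. Among all genes, SPP1 ranked 6th with NTHi and 7th without it, TREM2 15th and 20th, and AXL 28th and 29th. LPL stood 32nd in both conditions by its lower bound, so its rank, like that of any gene below the floor in 1 line, depends on the floor. CD9 ranked 202nd and 195th.

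**Figure D2:**
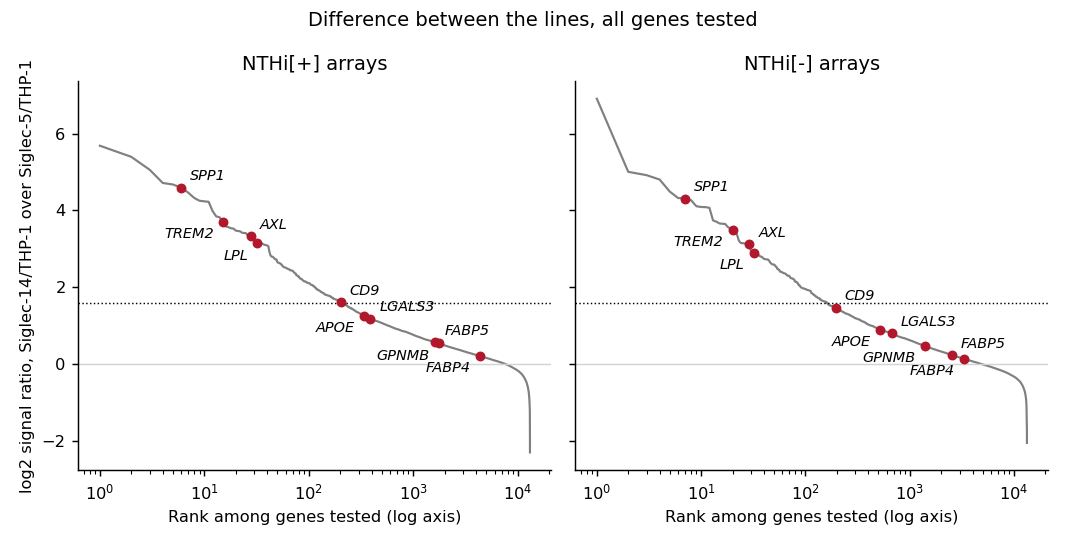
The log2 signal ratio of Siglec-14/THP-1 over Siglec-5/THP-1 against the rank of the gene (log axis) for the arrays with NTHi (left) and without it (right). The grey line is all genes tested, the red points are the 10 genes and the dotted line is 3-fold. With signals raised to the floor, SPP1, TREM2 and AXL lie among the top 29 genes in both panels, LPL is plotted at its lower bound, and CD9 lies near the 3-fold line.

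Whether NTHi changed these genes is a separate question, which the rule for the members did not use. None of the 10 genes reached 3-fold in either line. In Siglec-14/THP-1, 0 of 10 were called higher and 0 lower with NTHi, against 0.189% and 0.0681% of 13210 genes tested. In Siglec-5/THP-1, 0 of 8 genes at the floor were called in either direction, against 0.261% higher and 0.0384% lower among 13014 genes. At a threshold of 2-fold the counts were also 0. In Siglec-14/THP-1 the log2 ratio of NTHi[+] over NTHi[−] ran from -0.19 for TREM2 to 0.29 for AXL. For comparison, the central 95% of 8300 bright genes, those with a signal at the 75th percentile of all signals (105) or above on at least 1 array, ran from -0.32 to 0.58. In Siglec-5/THP-1 the log2 ratio ran from -0.40 for TREM2 to 0.09 for AXL, and the central 95% of bright genes from -0.49 to 0.42. All 10 genes thus lay within the range of most bright genes in Siglec-14/THP-1, as did the 8 measured genes in Siglec-5/THP-1.

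SPP1 and TREM2, with the largest ratios between the lines, had somewhat lower signals with NTHi in both. SPP1 had a log2 ratio of -0.07 in Siglec-14/THP-1 and -0.36 in Siglec-5/THP-1, and TREM2 had -0.19 and -0.40. GPNMB had -0.11 and -0.17. AXL had 0.29 and 0.09. APOE had 0.25 in Siglec-14/THP-1 and -0.12 in Siglec-5/THP-1, LGALS3 0.27 and -0.11, FABP5 0.23 and -0.09, and CD9 0.05 and -0.10. LPL and FABP4 had 0.26 and 0.07 in Siglec-14/THP-1 and were below the floor on both Siglec-5/THP-1 arrays. The median log2 ratio of all genes tested was 0.08 in Siglec-14/THP-1 and -0.11 in Siglec-5/THP-1, and 7 of the 10 genes were above 0 in Siglec-14/THP-1, against 5 when the arrays were scaled to the same trimmed mean.

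**Figure D3:**
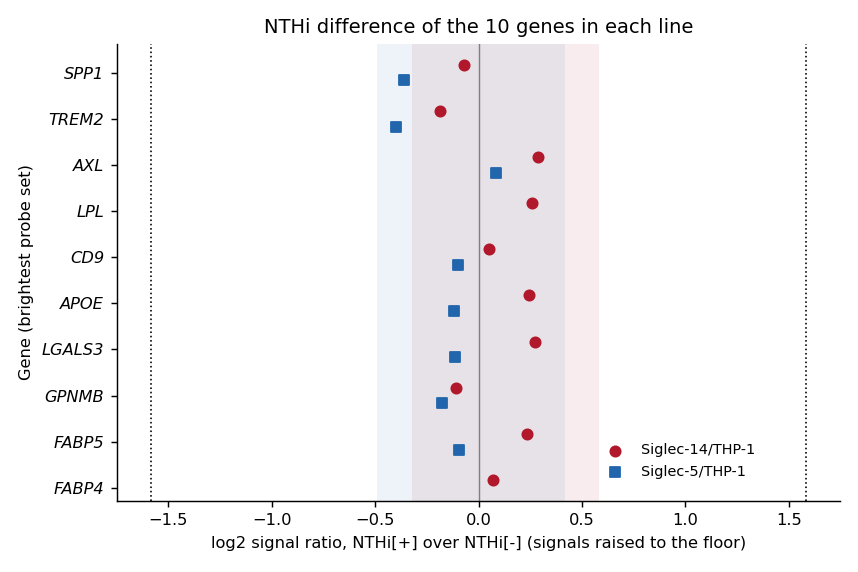
The log2 signal ratio of NTHi[+] over NTHi[−] for the 10 genes (rows) in Siglec-14/THP-1 (red circles) and Siglec-5/THP-1 (blue squares), with signals raised to the floor. Shading marks the central 95% of bright genes in each line and dotted lines mark 3-fold. All points lie within the shading of their line, and LPL and FABP4 have no square because both Siglec-5/THP-1 signals were below the floor.

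A response to NTHi shared by both lines was tested with limma on all 4 arrays, with cell line as a term. Of 16 member probe sets, 0 passed an adjusted p of 0.05 and 0 passed an unadjusted p of 0.05. Over all 32017 probe sets, 0.946% passed the adjusted threshold and 2296 probe sets passed the unadjusted one. For LPL, FABP4 and the dimmer probe sets of AXL and GPNMB, both Siglec-5/THP-1 signals were raised to the floor. Their NTHi difference in that line was thus fixed at 0, so these probe sets could not show a shared response. The NTHi[+] signals of the dim probe set of CD9 were raised to the floor in both lines. The smallest p among the members belonged to TREM2, with a log2 difference of -0.29 (standard error 0.16, limma adjusted p = 0.78). SPP1 had -0.22 (standard error 0.17, limma adjusted p = 0.9997) and AXL 0.19 (standard error 0.28, limma adjusted p = 0.9997). A single probe set leaves 1 residual degree of freedom, so the standard errors come almost wholly from other probe sets of similar brightness. A p that misses the threshold does not show that the genes were unaffected, and whether the lines responded differently cannot be tested with 1 array per condition.

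The partners of TREM2 and AXL were also measured. Of 10 genes for TREM2 and TAM receptor signalling, 0 were called in either direction between the lines in either condition. Over all genes tested, 1.63% were called higher with NTHi and 1.21% without it, so a count of 0 among 10 says little. The median log2 ratio of this list was 0.09 with NTHi and -0.08 without it. TYROBP, the adaptor that carries the TREM2 signal into the cell, had signals of 376 and 329 in Siglec-14/THP-1 with and without NTHi, against 186 and 205 in Siglec-5/THP-1, a ratio of 2.02 with NTHi and 1.61 without it. TREM1, a related receptor that amplifies inflammation through the same adaptor, had 46.0 and 45.6 in Siglec-14/THP-1, against signals below the floor in Siglec-5/THP-1, at least 2.87-fold and 2.85-fold higher. Of the other TAM receptors, MERTK had 48.0 and 63.7 in Siglec-14/THP-1, against 41.0 and 39.9 in Siglec-5/THP-1, and TYRO3 reached the floor only in Siglec-5/THP-1, with 26.7 and 30.9. GAS6, the ligand that bridges AXL to dying cells, had 93.0 and 95.3 in Siglec-14/THP-1, against 130 and 129 in Siglec-5/THP-1. TYROBP, TREM1, MERTK, TYRO3 and GAS6 are named here for their roles, with their values seen.

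The receptors of osteopontin and the partners of galectin-3 had 0 of 9 genes called with NTHi and 0 of 10 without it. With 1.63% and 1.21% of all genes called higher, these counts say little too. The median log2 ratio of the list was 0.28 with NTHi and 0.21 without it. ITGA4, an integrin subunit that binds osteopontin and VCAM-1, ran opposite to SPP1, with 419 and 441 in Siglec-14/THP-1, against 969 and 1190 in Siglec-5/THP-1. ITGAV, the αv integrin subunit, had 788 and 616 in Siglec-14/THP-1, against 444 and 401 in Siglec-5/THP-1. ITGA4 and ITGAV were picked after their values were seen.

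Of 24 measured genes of lipid uptake, storage and efflux, 21 reached the floor. Among these, 2 were called higher in Siglec-14/THP-1 in both conditions and 0 lower, where 1.04% of all genes tested in both were called higher. FABP3, the fatty acid carrier of heart and muscle, had 180.4 and 163 in Siglec-14/THP-1, against 20.5 and 27.0 in Siglec-5/THP-1, ratios of 8.79 and 6.04. OLR1, the LOX-1 receptor for oxidized LDL, had 121 and 78.9 in Siglec-14/THP-1 and was below the floor in Siglec-5/THP-1, at least 7.58-fold and 4.93-fold higher. The list as a whole had a median log2 ratio of 0.30 with NTHi and 0.04 without it. ABCA1, the cholesterol exporter, and MSR1, the class A scavenger receptor, were below the floor on all 4 arrays. Of 20 further genes linked to lipid- or disease-associated macrophages, 4 were called higher in both conditions and 0 lower, against the same 1.04%. The medians were 0.58 and 0.33. The called genes were CCL4, a chemokine for monocytes and T cells, CD52, a surface glycoprotein of leukocytes, CSF1, the growth factor of macrophages, and CLEC7A, the β-glucan receptor dectin-1. CD52 had 677 and 737 in Siglec-14/THP-1, against 220.1 and 226 in Siglec-5/THP-1. CSF1 had 102 and 101 in Siglec-14/THP-1, against 16.9 and 20.9 in Siglec-5/THP-1. CLEC7A had 70.1 and 62.5 in Siglec-14/THP-1, against 16.4 and 19.0 in Siglec-5/THP-1. CCL4 had 6775 and 4355 in Siglec-14/THP-1, against 203 and 36.1 in Siglec-5/THP-1, where it was 5.62-fold higher with NTHi. Among the MITF and TFE factors, which drive lysosomal genes, TFEB had the largest ratio, 3.62 with NTHi and 2.88 without it. Of these 4 genes, 1 was called higher with NTHi and 0 in both conditions, against 1.63% and 1.04% of all genes tested. CSF1, CLEC7A and TFEB were named after their values were seen.

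**Figure D4:**
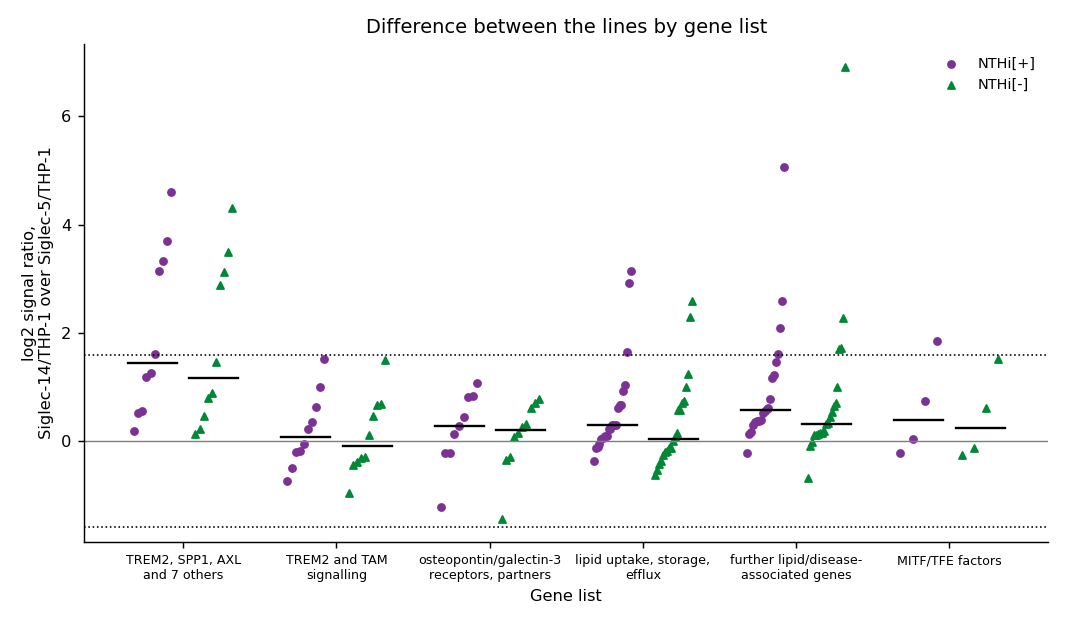
The log2 signal ratio of Siglec-14/THP-1 over Siglec-5/THP-1 for each gene with a signal at the floor or above, by gene list, with NTHi (circles) and without it (triangles). Black bars are list medians and dotted lines are 3-fold, and the group with TREM2, SPP1 and AXL has the highest medians, 1.44 and 1.18, of the 6 lists, a group that was chosen on this difference.

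The genes nearest in pattern to TREM2, SPP1 and AXL were sought among 8300 bright genes, as the smallest distance between log2 signals over the 4 arrays, raised to the floor and then centered for each gene. A gene could count as bright through the Siglec-14/THP-1 arrays alone, and where its Siglec-5/THP-1 signals lay below the floor its distance is set by the floor and is not given. Of the 3 genes nearest to TREM2, RGS2, a regulator of G protein signaling (distance 0.32), and PNOC, a neuropeptide precursor (0.40), were above the floor on all arrays. RGS2 had signals of 2290.7 and 2143 in Siglec-14/THP-1 with and without NTHi, against 194 and 243 in Siglec-5/THP-1. PNOC had 352 and 359 in Siglec-14/THP-1, against 18.6 and 28.5 in Siglec-5/THP-1. The other gene, the collagenase MMP1, had 186 and 190.2 in Siglec-14/THP-1, against 1.76 and 1.02 in Siglec-5/THP-1, far below the floor, so its likeness to TREM2 was not measured. For SPP1, only PHLDA1 (0.29) was above the floor on all arrays, with 738 and 707 in Siglec-14/THP-1, against 36.8 and 40.9 in Siglec-5/THP-1. GNLY, the lymphocyte protein granulysin, was below the floor on both Siglec-5/THP-1 arrays, and EMP1, a membrane protein, on the Siglec-5,NTHi[+] array. The 3 genes that came nearest to AXL were FN1, which encodes fibronectin, LPL and CRLF2, a chain of the TSLP receptor, and all 3 were below the floor on both Siglec-5/THP-1 arrays, where AXL itself lay just above it. No measured neighbor of AXL can therefore be named among these 3, and genes beyond them were examined only where they are members. The nearest to AXL of the bright members above the floor on all arrays was TREM2 (0.60), which ranked 23rd among the 8300 genes. With 4 arrays this likeness is mostly that of the difference between the lines. TREM2, SPP1 and AXL were chosen on that difference, so nothing is read from their likeness to each other.

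The measured markers of mature macrophages were low, and some markers of other cell types reached the floor. Some markers had no probe set listed for 1 gene, among them CD68 for macrophages and ACP5 for osteoclasts. Of 10 measured macrophage markers, 5 were below the floor on all 4 arrays, among them MRC1, C1QA, C1QC and VSIG4, none of the other 5 exceeded 20.9, and the summed signal of the list was 71.3 and 73.1 in Siglec-14/THP-1 with and without NTHi, against 107 and 66.9 in Siglec-5/THP-1. The name of the gene group therefore says where these genes are known from, and the arrays do not show the cells to be mature macrophages. Of 11 measured monocyte markers, 9 reached the floor, with sums of 27033 and 23718 in Siglec-14/THP-1, against 26855 and 27053 in Siglec-5/THP-1. The list includes MPO and ELANE, granule genes of immature myeloid cells, so the sums do not stand for mature monocytes. ELANE alone had 8381 and 7512 in Siglec-14/THP-1, against 8554 and 8420 in Siglec-5/THP-1. CD14 was below the floor on all arrays. Adipocyte markers reached the floor for 2 of 6 genes, with sums of 89.0 and 68.1 in Siglec-14/THP-1, against 94.9 and 84.5 in Siglec-5/THP-1, and T and B lymphocyte markers for 3 of 5, with 57.8 and 62.2 against 98.5 and 53.8. Microglia markers did so for 2 of 4, with 299.8 and 272 against 166 and 209.8, and fibroblast and epithelial markers for 5 of 8, with 564 and 580.1 against 363 and 439.6. ADIPOQ, PLIN1, CD3E, MS4A1 and P2RY12 were below the floor on all arrays. Others of the same lists reached the floor, and are named here after their values were seen. The floor is the median of all signals, so reaching it does not show that a transcript is present. TMEM119, a microglia marker, had 116 and 81.3 in Siglec-14/THP-1, against 38.3 and 39.9 in Siglec-5/THP-1, and was called with NTHi (3.03-fold) but not without it. CX3CR1 had 178 and 184 in Siglec-14/THP-1, against 121 and 163 in Siglec-5/THP-1, and COL1A1, a fibroblast collagen, had 257 and 266, against 132 and 141. CIDEC of the adipocyte list lay between 34.7 and 49.0 and CD79A of the lymphocyte list between 28.7 and 37.4 over the 4 arrays. The part of these markers in the differences of the 10 genes was not tested. Osteoclasts also express SPP1 and GPNMB, and of 6 measured osteoclast markers 5 reached the floor. Of these, 1 was called higher in Siglec-14/THP-1 in both conditions, where 1.04% of all genes tested in both were. MMP9 had 2304 and 1282 in Siglec-14/THP-1, against 268 and 194 in Siglec-5/THP-1, and took the sum of the list to 2552 and 1486, against 439 and 374. Its part in the difference of SPP1 was not tested. CTSK, the main collagen-degrading protease of osteoclasts and likewise picked with its values in view, had 187 and 152 in Siglec-14/THP-1, against 111 and 125 in Siglec-5/THP-1. DCSTAMP, the fusion receptor of osteoclasts, was below the floor throughout. VCAN, a monocyte proteoglycan, was likewise higher in Siglec-14/THP-1, with 131 and 190.0 against 23.0 and 37.0 in Siglec-5/THP-1. It was the only gene of the monocyte list called in both conditions, against 1.04% of all genes. The medians of that list were 0.11 with NTHi and -0.11 without it. MPO, picked with its values in view, ran the other way, with 1365 and 1152 against 2186 and 2408. SIGLEC14 had no probe set listed for 1 gene. The probe set listed for SIGLEC5 had 19.5 and 21.3 in Siglec-14/THP-1, against 21.6 and 4.13 in Siglec-5/THP-1, all near or below the floor. It is not known here whether that probe set covers the introduced sequence, so neither gene checks the labels of the lines.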

How the data were processed

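The table deposited by the authors holds linear signal intensity for 54675 probe sets on 4 arrays (GeneChip Human Genome U133 Plus 2.0). Per the methods, target was prepared from 250 ng RNA, and GCOS (version not given in the sources used here) gave signals scaled by their total over all probes. The sums still ranged from 12735500 (Siglec-14,NTHi[−]) to 14047100 (Siglec-5,NTHi[−]), and median signals from 15.1 to 16.5. Signals were used without further scaling, and other scalings were run as alternatives. Arrays were assigned to groups from the sample titles. Probe sets were named with the platform annotation: 41097 list 1 gene, 1801 several and 11777 none. A gene is represented by its probe set with the highest mean signal.

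Ratios were taken after raising signals to the floor of 16. The number of arrays limits the precision. The shared NTHi term was fitted by limma 3.58.1 under R 4.3.3 to log2 values, beside a term for the line. An intensity trend and Benjamini-Hochberg adjustment over 32017 probe sets were used. The fit was checked on simulated arrays with independent noise and the same NTHi effect in both lines. That check does not cover probe sets whose NTHi difference is unlike in the lines. The p-values do not measure a spread between replicates. They set the NTHi difference against how far the lines disagree in it, pooled over probe sets of similar brightness. Python 3.11.15 with numpy 2.4.6, pandas 2.3.3 and matplotlib 3.10.9 did the rest. Alternatives were median scaling, trimmed-mean scaling, quantile normalization, floors at the 25th and 75th percentiles or none, a pseudocount of 16, thresholds of 2-fold and 4-fold, the median over probe sets and, for limma, no trend or no cell line term. Other genes were named where at least 3-fold different in both conditions with a signal of 105 or more, by likeness of pattern, or as stated. The members, lists and tests were chosen with earlier results of these data known.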

Additional observations from a re-analysis of the deposited data

Results flagged for a closer look

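APOE, CD9, FABP5 and LGALS3 had higher signals with NTHi in Siglec-14/THP-1 and lower signals with NTHi in Siglec-5/THP-1, which makes opposite directions in the 2 lines. The log2 ratio of NTHi[+] over NTHi[−] in Siglec-14/THP-1 minus that in Siglec-5/THP-1 was 0.36 for APOE, 0.15 for CD9, 0.33 for FABP5 and 0.39 for LGALS3. These differences were not tested, since each line has 1 array per condition. Over 11031 genes at the floor or above on all arrays, the median of the same difference was 0.19, and 46.1% of these genes were higher in Siglec-14/THP-1 and lower in Siglec-5/THP-1. The directions depended on the scaling and, for APOE, on the probe set. APOE and LGALS3 were opposite under all 3 other scalings, but their log2 ratios in Siglec-5/THP-1 were then between -0.03 and -0.01. CD9 was opposite after median scaling only, and its directions were turned round under the trimmed mean (-0.04 in Siglec-14/THP-1 and 0.01 in Siglec-5/THP-1) and quantile normalization (-0.08 and 0.02). FABP5 was opposite under quantile normalization only (0.08 and -0.04). Of the other 2 probe sets of APOE, 1 was opposite too (0.42 and -0.52) and 1 was higher with NTHi in both lines (0.25 and 0.12).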

How the results depend on the processing

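SPP1 and TREM2 were called higher in Siglec-14/THP-1 in both conditions under every alternative run. The number of the 10 genes called higher was 4 or 5 in each condition under the 3 scalings, the pseudocount, the 4-fold threshold and the median over probe sets, 6 with NTHi and 5 without it with the floor at the 25th percentile or none, and 7 and 5 at 2-fold. CD9 made the difference under the scalings, and AXL stayed called in all of these. With NTHi, the genes called higher were 214 of 13099 as reported. They grew to 720 of 17730 with the floor at the 25th percentile, 1618 of 19775 with none and 571 of 13099 at 2-fold. They fell to 184 of 13164 with median scaling, 199 of 13098 with the trimmed mean and 181 of 13162 with quantile normalization. With the pseudocount they were 150 of 13099, at 4-fold 114 of 13099 and with the median over probe sets 168 of 13156. With the floor at the 75th percentile the counts of members were 3 with NTHi and 2 without it. AXL and LPL were then bounded by the higher floor, at log2 ratios of 1.08 and 0.43 with NTHi. Over all genes, 66 of 8133 were called higher with NTHi and 40 of 8110 without it at that floor. The median log2 ratio was 1.78 without NTHi with the floor at the 25th percentile, and 2.48 with NTHi and 2.30 without it with no floor, where FABP4 rests on signals under the floor. With NTHi, 0 members were called in either line or by limma under any alternative run. At an unadjusted p of 0.05, limma passed 1 of 16 member probe sets with quantile normalization and 2 of 20 with no floor. Over all probe sets it passed 3230 of 32022 and 3675 of 54675, so these member counts say little. Over all probe sets limma called 303, against 395 with no intensity trend, 322 with median scaling, 279 with no floor, 128 with quantile normalization, 194 with the floor at the 75th percentile and 0 without the cell line term (904 at an unadjusted p of 0.05). Calls over all genes with NTHi in Siglec-14/THP-1 were 25 higher and 9 lower, against 22 and 13 with the trimmed mean, 379 and 437 with the floor at the 25th percentile and 1166 and 1363 with no floor. The median log2 ratio of all genes moved by over 0.1 under some scalings, to -0.05 between the lines with NTHi (median scaling), 0.02 without NTHi and -0.00 with NTHi in Siglec-5/THP-1 (trimmed mean). No paired analysis was possible because each group has 1 array and thus no 2 groups share more than 1 replicate number; the cell line term of limma already compares the conditions within a line. With 1 array per group no replicate could be left out.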
